A study of Mus musculus with 6 samples.

Results

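The genes described here are members of the PRDM family (Prdm1, Prdm2, Prdm4, Prdm6, Prdm8, Prdm10, Prdm15 and Prdm16) together with Mecom. They were chosen by name and by no cut-off on their measured values, but with earlier results of these data known. Of these 9 genes, 7 had a row among the 13931 genes of the deposited expression table, and Prdm6 and Prdm8 were not analysed here. Lenses were taken from P0 mice, on the day of birth, and their total RNA was sequenced in 6 libraries of 2 pooled lenses each, 3 Control and 3 Celf1cKO. The Celf1cKO mice carried 1 Celf1lacZKI allele, a germline knock-in that inactivates the gene, and 1 Celf1flox allele, whose floxed part is deleted by Pax6GFPCre, a Cre whose Pax6 promoter fragment is active from the lens placode onward and also in the pancreas. The Control mice are labelled Celf1lacZKI/+, so both groups carry the inactivated allele according to the labels. The study's methods also describe floxed mice without Cre as controls, and which of these the Control libraries came from could not be settled. Both groups were on a mixed C57BL/6J and FVB background. The question was which lens transcripts change when the RNA-binding protein CELF1 is lost.

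PRDM proteins are nuclear regulators of transcription. They carry a PR domain, related to the SET domain of histone methyltransferases, and in most members zinc fingers that bind DNA. Some methylate histones themselves and others recruit methyltransferases, deacetylases or CtBP corepressors, and the family is known for settling cell fate: Prdm1 (Blimp-1) in plasma cells and photoreceptors, Prdm16 in brown fat, palate and blood stem cells, and Mecom (Evi1), the closest relative of Prdm16, in blood stem cells. CELF1 is an RNA-binding protein that recognises GU-rich stretches in 3′UTRs and is known to promote the decay of mRNAs and to control splicing and translation.

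Because CELF1 acts through such sites, the longest annotated 3′UTR of each gene (GENCODE M21, GRCm38) was searched on the RNA strand for the GU-rich core TGTTTGT (7 bases), written as DNA, and for the GU-rich element of 11 bases that joins 2 copies of this core sharing 3 bases, and so contains it. The longer motif was found in 1 of the 7 genes, Prdm1, and in 4.27% of the 13105 genes with a 3′UTR. The core was found in 5 of the 7, and in 29.98% of all genes. The windows of the gene with the longer motif, of the gene with the largest change and of its closest relative are shown 5′ to 3′ as DNA letters, with the motif in capitals. All 3 genes lie on the minus strand.
Prdm1, chr10:44437314-44437338: gttggttTGTTTGTTTGTtttttcc
Prdm16, chr4:154320112-154320136: tctctgaccTGTTTGTataagccaa
Prdm16, chr4:154316534-154316558: tattgtgtcTGTTTGTggaattctt
Mecom, chr3:29951430-29951454: tttccttttTGTTTGTgatctcatt
Counted from the first base of the stop codon, the Prdm1 site lay at base 2339 of 2493. The Prdm16 sites lay at bases 786 and 4364 of 4788, and the Mecom site at base 1274 of 1423. Prdm10 held 2 core sites and Prdm15 held 1, whereas Prdm2 and Prdm4 held none. A long 3′UTR holds the core more often: it was present in 69.7% of the 393 genes whose 3′UTR was within 10% of the length of that of Prdm16, so its presence there is near the background of such genes. For Prdm1, the corresponding share for the 11-base motif was 5.77% of 936 genes. A match is a description of the letters and not evidence of binding.

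Depth was even, with 40694454 to 44387151 reads on genes per library. The targeted gene, Celf1, measured 9.95, 9.94 and 9.34 log2 CPM (reads scaled to the size of the library, on the log2 scale) in the Control libraries and 8.93, 7.66 and 7.83 in the Celf1cKO libraries, a log2 fold-change of -1.60 (limma, adjusted p = 0.0269). Its transcript was therefore present in every Celf1cKO library, at 33.0% of the Control level, and most of all in Celf1cKO replicate 1. Reads were counted per gene, so transcripts without the floxed exon are included, and 33.0% is not the level of intact transcript. The study reports that part of the Celf1 transcripts in Celf1cKO lenses lacked this exon. The Celf1 call was kept without Celf1cKO replicate 1 and lost on leaving out any of the other 5 libraries (limma, adjusted p 0.0560 to 0.108). It was also lost in a limma fit with no variance trend (adjusted p = 0.0693). A gene was called elevated or reduced where the adjusted p was under 0.05, the log2 fold-change beyond 0.58 in size, and the average level above 1 log2 CPM. By this rule 664 genes were elevated and 366 reduced, 7.39% of the table. Without Control replicate 2 or without Celf1cKO replicate 3, a single gene of the whole table was called. The labelled tissue was checked with marker genes. Lens fiber markers (7 of 8 in the table, without Lim2) summed to 112877 to 136125 CPM in Control and 93278 to 99604 CPM in Celf1cKO, and markers of corneal and skin epithelium (0 of 6) had no row.

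Among the PRDM genes, 1 of 7 was reduced, Prdm16, and 0 were elevated. Among all genes tested, 2.63% were reduced and 4.77% elevated, and of the genes with an average level above 1 log2 CPM, which 6 of the 7 reached, 9.68% were called. The median log2 fold-change of the 7 genes was -0.13, and that of all genes -0.04. The Control and Celf1cKO libraries did not overlap for 2 genes, Prdm16 and Prdm4, both lower in Celf1cKO. Of all genes, 36.5% did not overlap, 17% with Celf1cKO lower and 19.5% with Celf1cKO higher, and of those above 1 log2 CPM 40% did not.

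**Figure D1:**
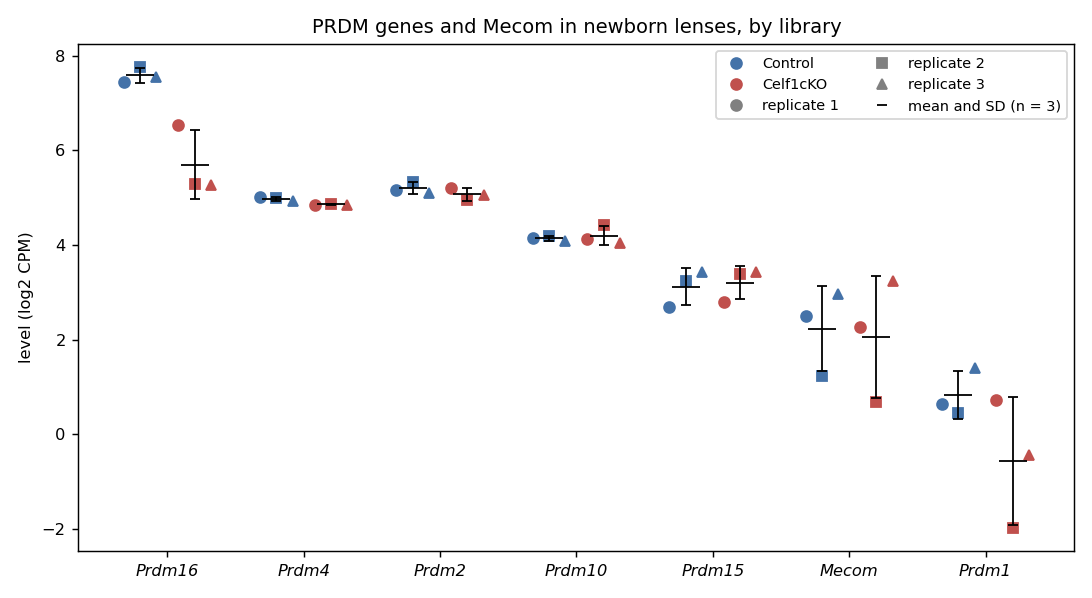
Level of the 7 genes in each library, in log2 CPM (blue, Control; red, Celf1cKO; marker shapes give the replicate number; black bars, mean and SD of 3 libraries). Prdm16 stands apart, from 7.45 to 7.76 in Control and from 5.26 to 6.54 in Celf1cKO, whereas Mecom and Prdm1 spread widely within a group.

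Prdm16 (ENSMUSG00000039410, chr4:154316125-154636873, minus strand) encodes a zinc finger protein that methylates histone H3 and directs brown fat and palate development. It measured 7.45, 7.76 and 7.55 log2 CPM in the Control libraries and 6.54, 5.29 and 5.26 in the Celf1cKO libraries. All Celf1cKO libraries were below all Control libraries. Celf1cKO replicate 1, the library with the most Celf1 transcript of its group (with or without the floxed exon), was nearest to Control. The mean went from 7.59 ± 0.16 to 5.70 ± 0.73 (SD, n = 3 each), a log2 fold-change of -1.89 (95% interval -2.65 to -1.13; limma, adjusted p = 0.0162), or 27.0% of the Control level. These values rest on 6697 to 8080 reads per Control library and 1884 to 3993 per Celf1cKO library. Prdm16 was the 44th of the 366 reduced genes, ordered from the lowest log2 fold-change. The call was lost without Control replicate 2 (log2 fold-change -1.80, adjusted p = 0.0699), without Control replicate 3 (-1.91, adjusted p = 0.0584), without Celf1cKO replicate 3 (-1.67, adjusted p = 0.0784) and in a limma fit with no variance trend (adjusted p = 0.0517). Whole lenses were sequenced, so fewer cells of a type and less RNA per cell cannot be told apart.

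Other lens genes moved with Prdm16. Of the lens fiber markers, Bfsp1, a beaded filament protein, and Gja3, a gap junction protein, were reduced, by 1.47 and 1.13 on the log2 scale. Of the 5 lens epithelium markers, Foxe3, a transcription factor of the lens epithelium, was reduced, with a log2 fold-change of -2.01 (limma, adjusted p = 0.0434). Markers of endothelium (7 of 7 in the table, none called) summed to 118, 95.3 and 104 CPM in Control and to 114, 22.8 and 54.7 CPM in Celf1cKO, again with Celf1cKO replicate 1 nearest to Control. Markers of smooth muscle and pericytes (5 of 6, without Cnn1) summed to 69.0 to 92.7 CPM in Control and 26.0 to 70.5 CPM in Celf1cKO. None of the markers of smooth muscle, fibroblasts (3 of 5 in the table), leukocytes (4 of 6) or erythroid cells (1 of 5) was called. The part of any of these in the Prdm16 result was not tested.

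Prdm1 (ENSMUSG00000038151, chr10:44437177-44528501, minus strand) encodes a repressor of transcription that ends the B cell programme in plasma cells. It was the lowest of the 7 genes and the one below the level required for a call, at 0.64, 0.45 and 1.40 log2 CPM in Control and 0.73, -1.98 and -0.44 in Celf1cKO. Celf1cKO replicate 1 lay within the Control values and the other two below them, so the groups overlapped. The libraries held 49 to 102 reads of it in Control and 10 to 69 in Celf1cKO. The log2 fold-change was -1.40, with a 95% interval from -2.94 to 0.15 (limma, adjusted p = 0.203), which covers no change as well as a drop beyond that of Prdm16. With the replicate number as a block the interval was -2.64 to -0.15, which leaves out 0, but the adjusted p was 0.109. Without Celf1cKO replicate 1 the log2 fold-change was -2.04 and the adjusted p 0.0415, with the average level still under that required. Without Celf1cKO replicate 2 the log2 fold-change was -0.69 (limma, adjusted p = 0.445), and on log2(CPM + 1), which damps low values, it was -0.66. The endothelium markers had the same order as Prdm1 within Celf1cKO, lowest in replicate 2 and highest in replicate 1, as did the summed markers of smooth muscle and of fibroblasts. Within Control, Prdm1 was highest in replicate 3, as were the fibroblast markers (2.72 to 5.33 CPM), whereas the endothelium and smooth muscle markers were highest in replicate 1. The part of these markers in the Prdm1 values was not tested.

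Mecom (ENSMUSG00000027684, chr3:29951296-30548008, minus strand) encodes the zinc finger protein EVI1 and a longer form that, like Prdm16, has a PR domain. It measured 2.50, 1.22 and 2.97 log2 CPM in Control and 2.26, 0.67 and 3.24 in Celf1cKO, from 85 to 306 and 75 to 463 reads. The groups overlapped over almost their whole range, and in both replicate 2 was lowest and replicate 3 highest. The log2 fold-change was -0.18, with a wide 95% interval of -1.79 to 1.44 (limma, adjusted p = 0.890). Its sign was not stable. It was 0.05 with total-count scaling, 0.01 with quantile normalization, 0.52 without Celf1cKO replicate 2 and 0.19 without Control replicate 3.

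Markers of the retina followed the same order. The 5 of 7 retina markers in the table (Crx and Nrl had no row) summed to 7.05, 1.02 and 26.0 CPM in Control and to 3.77, 1.48 and 12.4 CPM in Celf1cKO, so that replicate 2 was lowest and replicate 3 highest in both groups. Markers of retinal pigment epithelium and melanocytes (5 of 6, without Rpe65) ran from 3.58 to 22.0 CPM in Control and from 6.78 to 26.9 CPM in Celf1cKO, with replicate 3 highest in both. None of either list was called. Of the 296 genes above 1 log2 CPM that, like Mecom, ranged over at least 1 log2 unit within both groups, 43.6% had the same order of replicate numbers in both. The part of these markers in the Mecom values was not tested.

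**Figure D2:**
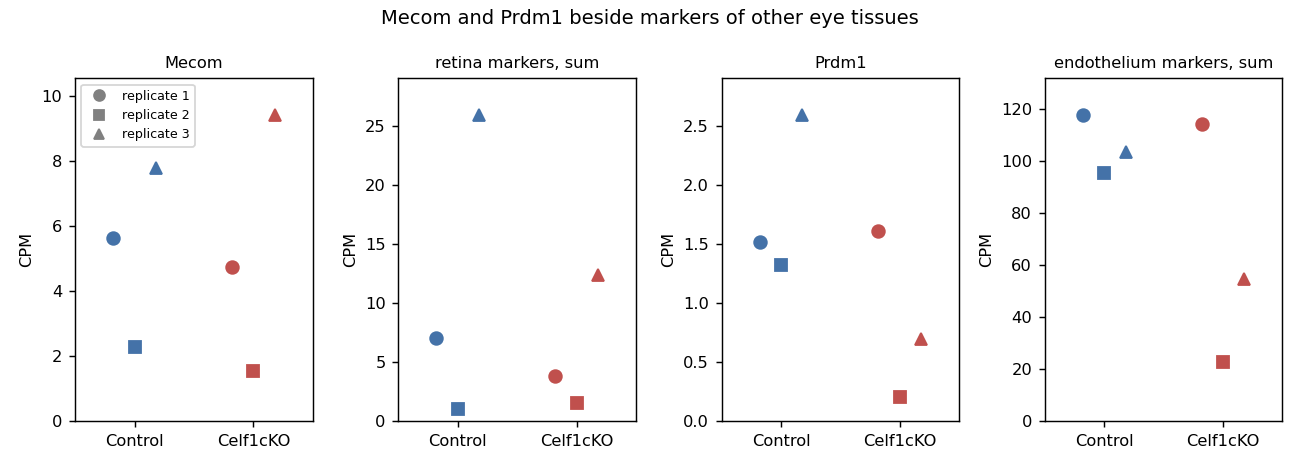
CPM of Mecom and Prdm1 in each library beside the summed CPM of the retina and endothelium marker lists (linear axes from 0; blue, Control; red, Celf1cKO; shapes, replicate number). Replicate 2 is lowest and replicate 3 highest in both groups for Mecom and for the retina markers, and Celf1cKO replicates 2 and 3 are low for Prdm1 and the endothelium markers. The summed leukocyte markers, not drawn, had the Mecom order too.

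Prdm2 (ENSMUSG00000057637, chr4:143107391-143212995, minus strand), also RIZ, binds the retinoblastoma protein and methylates histone H3. It measured 5.17, 5.34 and 5.10 log2 CPM in Control and 5.21, 4.95 and 5.05 in Celf1cKO, and the groups overlapped. The log2 fold-change was -0.13 (95% interval -0.40 to 0.13; limma, adjusted p = 0.456), so a change beyond 0.58 in either direction lay outside the interval.

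Prdm4 (ENSMUSG00000035529, chr10:85891966-85917142, minus strand), which recruits the arginine methyltransferase PRMT5 in neural stem cells, gave the tightest values. It measured 5.01, 4.98 and 4.93 log2 CPM in Control and 4.86, 4.87 and 4.85 in Celf1cKO. The Celf1cKO libraries were all slightly below the Control libraries. The log2 fold-change was -0.12 (95% interval -0.32 to 0.08; limma, adjusted p = 0.395), and with total-count scaling the signs of Prdm4 and Prdm2 turned, to 0.11 and 0.09. That scaling moved the median of the genes above 1 log2 CPM by 0.23.

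Prdm10 (ENSMUSG00000042496, chr9:31280538-31381723, plus strand), an activator of the folliculin gene, measured 4.14, 4.19 and 4.09 log2 CPM in Control and 4.13, 4.42 and 4.05 in Celf1cKO. Its log2 fold-change of 0.06 (95% interval -0.25 to 0.36; limma, adjusted p = 0.804) rested on Celf1cKO replicate 2, without which it was -0.05. Prdm15 (ENSMUSG00000014039, chr16:97791467-97851850, minus strand), which helps to maintain naive pluripotency, measured 2.69, 3.23 and 3.44 log2 CPM in Control and 2.79, 3.39 and 3.42 in Celf1cKO. In both groups replicate 1 was lowest, and the groups overlapped. Its log2 fold-change was 0.08 (95% interval -0.51 to 0.68; limma, adjusted p = 0.855), an interval that extends past 0.58. With the replicate number as a block the interval was -0.24 to 0.41, within 0.58 on either side.

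**Figure D3:**
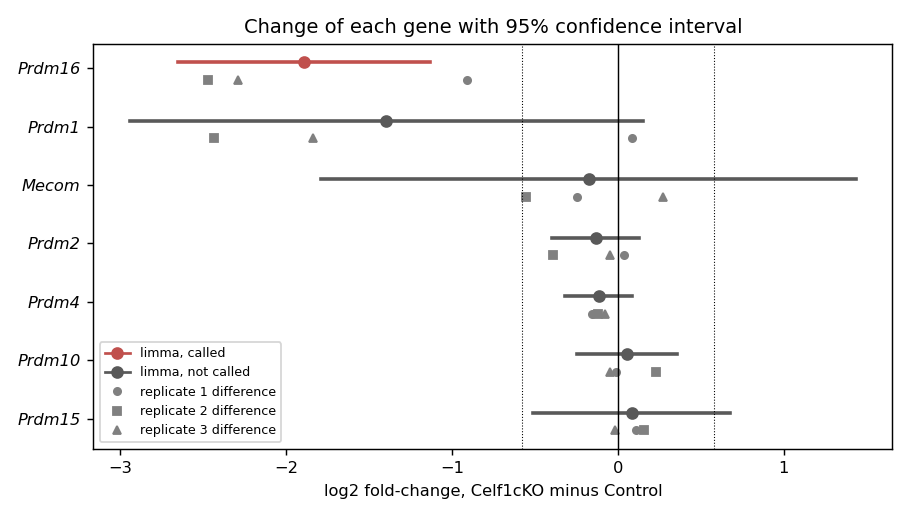
Log2 fold-change of each gene, Celf1cKO minus Control (large points, with limma 95% intervals; red, called; small grey marks, the difference between libraries of the same replicate number; dotted lines at 0.58 either side of 0). The Prdm16 interval, -2.65 to -1.13, lies wholly below the lower dotted line, the intervals of Prdm2, Prdm4 and Prdm10 lie within the dotted lines, and those of Prdm1, Mecom and Prdm15 reach beyond them.

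To compare the genes with each other, levels were divided by exon length, giving CPM per kilobase of exon. In Control lenses Prdm16 was highest, at 20.7 ± 2.35 CPM per kilobase (SD, n = 3). Prdm4 followed at 6.39 ± 0.169, Prdm2 at 4.97 ± 0.440, Prdm10 at 1.90 ± 0.0661, Prdm15 at 0.779 ± 0.197, Mecom at 0.420 ± 0.222 and Prdm1 at 0.324 ± 0.123. The libraries of neighbours in this order did not overlap, except for Prdm15 with Mecom and Mecom with Prdm1. In Celf1cKO lenses Prdm16 was at 6.09 ± 3.36 CPM per kilobase and its libraries overlapped those of Prdm4, at 5.89 ± 0.0283. With the longest transcript as the length, Prdm4 came above Prdm16 in Celf1cKO (7.31 against 6.60). Of the summed level of the 7 genes per kilobase, Prdm16 made up 56.3% to 60.7% in the Control libraries and 22.7% to 41.6% in the Celf1cKO libraries.

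**Figure D4:**
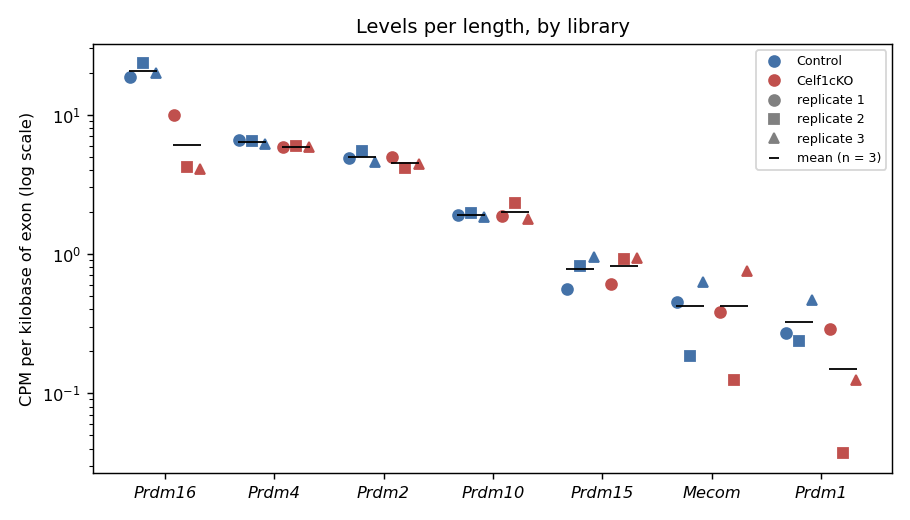
Level of each gene per kilobase of exon in each library, on a log axis (blue, Control; red, Celf1cKO; shapes, replicate number; black bars, mean of 3 libraries). Prdm16 is above the other genes in the Control libraries, at a mean of 20.7, and lies below Prdm4 in Celf1cKO replicates 2 and 3, at 4.20 and 4.10.

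Prdm16 and Mecom, the closest pair of the family, were compared within each library, where scaling has no effect. Prdm16 exceeded Mecom by 4.95, 6.54 and 4.58 log2 units in Control and by 4.28, 4.62 and 2.02 in Celf1cKO. Celf1cKO replicate 2 lay just above the lowest Control library, so the groups overlapped. The mean of Celf1cKO minus that of Control was -1.72 log2 units (exact permutation test, two-sided, p = 0.2), in a design whose smallest possible p is 0.1. Between libraries of the same replicate number the difference was -0.67, -1.92 and -2.56, lower in Celf1cKO in 3 of 3 pairs. With 3 libraries a group, this test could not settle whether the changes of Prdm16 and Mecom differ.

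The genes whose pattern over the 6 libraries was closest to that of Prdm16, among 10634 genes above 1 log2 CPM, were Crygf, a gamma-crystallin of lens fibers, Tcp11 and Stx11, a syntaxin. Likeness was measured as the root mean square difference between the values after centring each gene, which was 0.0746, 0.111 and 0.172 log2 units. Crygf belongs to a family of near-identical genes that can share reads. Closest to Mecom were Iqgap2, a scaffold protein of the cytoskeleton (0.252), Axl, a receptor tyrosine kinase (0.266), and Tmem150c (0.274). All 6 points of each profile come from the same libraries, so the likeness is a description.

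**Figure D5:**
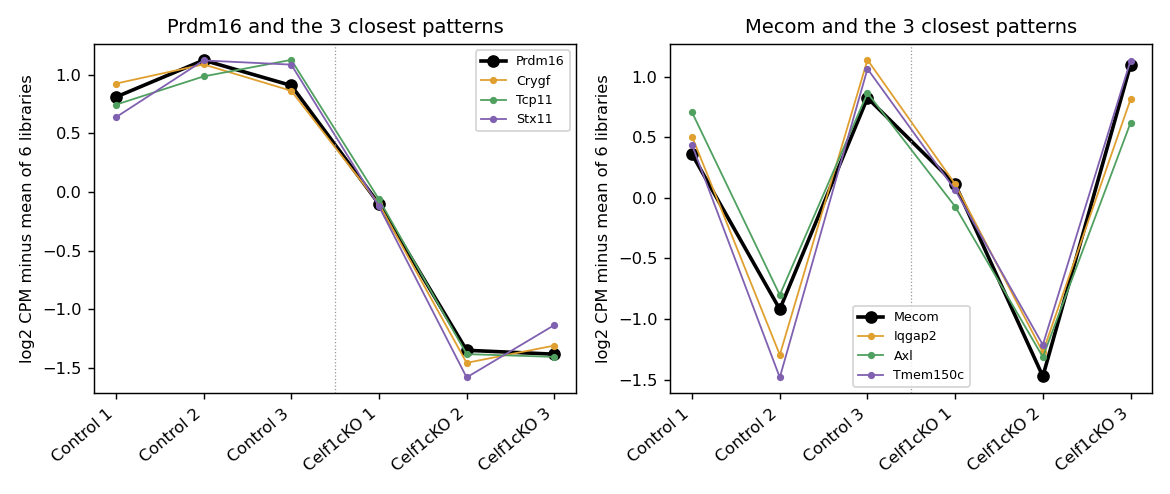
Log2 CPM minus the mean over the 6 libraries for Prdm16 (left) and Mecom (right), each in black, and for the 3 genes with the closest pattern (coloured lines), with a dotted line between Control and Celf1cKO libraries. The Prdm16 panel steps down between the groups, and the Mecom panel dips in replicate 2 of both groups.

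Among further PRDM-related genes, Prdm9, Prdm11 and Zfpm2 had a row and none of these was called. Prdm9, which places meiotic recombination, measured 0.69, 0.97 and 1.37 log2 CPM in Control and 0.43, -0.10 and -0.09 in Celf1cKO. The groups did not overlap, but the adjusted p was 0.0846 (limma) and its average level was under that required. Prdm11 had a log2 fold-change of -0.43 (95% interval -0.94 to 0.08; limma, adjusted p = 0.228). Zfpm2, a cofactor of GATA factors, was near the detection limit with 14 to 33 reads per library. Prdm12, Prdm13, Prdm14 and Zfpm1 were not analysed here.

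PRDM proteins act with corepressors and histone-modifying enzymes, of which 20 of 23 listed genes were in the table, and 1 was called. The share called was 7.39% of all genes and 9.68% of those above 1 log2 CPM. Ctbp1, a corepressor that binds Prdm16 and Mecom, measured 5.50, 5.32 and 5.48 log2 CPM in Control and 5.95, 6.10 and 6.23 in Celf1cKO. All Celf1cKO libraries were above all Control libraries, with a log2 fold-change of 0.66 (95% interval 0.42 to 0.90; limma, adjusted p = 0.0140). Without Control replicate 2 or without Celf1cKO replicate 3 the count was 0 of 20, and without Celf1cKO replicate 1 it was 5. A further 4 genes passed the adjusted p without reaching 0.58 in size: Kdm1a, a histone demethylase (0.55), Rb1, the retinoblastoma protein (0.53), and Hdac2, a histone deacetylase (0.36), were higher, and Tle3, a Groucho corepressor (-0.54), was lower. Together 5 of 20 had an adjusted p under 0.05, against 11.9% of all genes. Above 1 log2 CPM, a level that 18 of the 20 reached, 1550 of 10640 genes did. The median log2 fold-change of the list was 0.11, and 0.34 with total-count scaling.

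Genes that PRDM1 is known to act on in other tissues gave 7 of 10 in the table and 0 called, against 7.39% of all genes. Only 4 of the 7 reached the level required for a call, above 1 log2 CPM, where 9.68% of genes were called. The median log2 fold-change of the 7 genes was -0.13. Xbp1, the member with the highest level, a factor of secretory cells, had a log2 fold-change of -0.04 (95% interval -0.35 to 0.26). Tcf7, a WNT-responsive transcription factor, measured 3.55, 2.81 and 3.19 log2 CPM in Control and 3.95, 3.67 and 3.83 in Celf1cKO. Its log2 fold-change was 0.64 (limma, adjusted p = 0.0837), which passed with the replicate number as a block (adjusted p = 0.0382). Other members had negative log2 fold-changes that did not pass either. Id3, an inhibitor of helix-loop-helix factors, was at -1.13 (95% interval -2.14 to -0.11; limma, adjusted p = 0.132) and was called reduced without Celf1cKO replicate 1. Myc, a driver of cell growth, was at -0.97 (95% interval -1.74 to -0.20) and Bcl6, a repressor of the germinal centre B cell, at -1.07 (95% interval -2.31 to 0.18). Pax5 was at 0.64 (95% interval -0.33 to 1.60), with overlapping groups. Myc, Bcl6 and Pax5 were under the level required for a call. The groups did not overlap for Id3 and Myc, both lower in Celf1cKO, nor for Tcf7, higher in Celf1cKO. Of all genes, 36.5% did not overlap, and of those above 1 log2 CPM 40% did not. Of the genes of brown fat, in which Prdm16 is best known, 6 of 13 were in the table and 0 were called, against 7.39% of all genes. Only 2 of the 6 reached the level required for a call, so the others could not be called. The highest of these was Zfp516, a transcription factor that activates thermogenic genes, with a log2 fold-change of -0.07 (95% interval -0.43 to 0.30), and Ucp1, the uncoupling protein that defines brown fat, had no row. The median of the brown fat list was -0.02, with 3 genes above 0 and 3 below. Dio2 was under the level required for a call. Its log2 fold-change was 1.55 (95% interval 0.29 to 2.80, limma adjusted p = 0.103). All Celf1cKO libraries were above all Control libraries for Dio2.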

How the data were processed

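Per the labels and the study's methods, the authors sequenced strand-specific paired-end libraries of total lens RNA, aligned reads with STAR 2.7.8a to GRCm38.p6, counted them with featureCounts 2.0.0 and normalised the counts with edgeR; the strand setting of the counting is not given in the sources used here. Exons of the opposite strand overlapped 1.39% of the exon bases of Prdm10, 1.17% of Prdm16 and 0.65% of Mecom. The deposited table holds log2 CPM per library, with a small prior count (lowest value -4.41). It also holds group means and the authors' fold-changes, F statistics, p-values and FDR, which were not used, and an average log2 CPM, which was used for the expression threshold.

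Here, limma 3.58.1 (R 4.3.3) with a variance trend was fitted to the log2 CPM of all 13931 genes with the Benjamini-Hochberg adjustment over all of them, and checked on simulated data. Read counts were recovered from the steps between low values; 100% were whole within 0.01. Lengths and 3′UTRs came from GENCODE M21, which held 13928 of the gene identifiers. Deviations from the group means correlated between Control and Celf1cKO libraries of 1 number (0.26, 0.39 and 0.38 over genes for replicates 1, 2 and 3), so a fit with the replicate number as a block was run too. Where the replicates' animals are not stated to differ, p-values measure the spread between these libraries. The genes and lists were chosen with earlier results of these data known. Named from the lists were every called gene, otherwise the gene with the highest average level. Kdm1a, Rb1, Hdac2, Tle3, Tcf7, Id3, Myc, Bcl6, Pax5, Dio2 and Ucp1 were named after their values were seen.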

Additional observations from a re-analysis of the deposited data

How the results depend on the processing

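Over the whole table, 1030 genes were called; the count was 421 with no variance trend, 1867 with total-count scaling (1663 elevated and 204 reduced) and 1550 with no fold-change threshold, and leaving out 1 library gave 1 to 1916, with 1 call without Control replicate 2 or without Celf1cKO replicate 3. Prdm16 stayed below Control in all 18 alternatives, from -2.31 to -1.67 when 1 library was left out. The count of PRDM genes reduced was 0 with no variance trend and 0 to 1 when 1 library was left out; none was elevated in any alternative. Partner genes called were 2 with quantile normalization, 4 with total-count scaling, 5 with no fold-change threshold and 0 to 5 when 1 library was left out. PRDM1 target genes called were 1 with total-count scaling and 0 to 1 when 1 library was left out. Signs turned for Prdm2 (0.0924) and Prdm4 (0.11) with total-count scaling, for Mecom with total-count scaling (0.0477), with quantile normalization (0.0125) and when 1 library was left out (-0.77 to 0.52), and on leaving out 1 library for Prdm10 (-0.0543 to 0.13) and Prdm15 (-0.13 to 0.29). The causes were not tested. With the replicate block, 1279 genes were called, Prdm16 had an adjusted p of 0.0196 (limma), 1 PRDM1 target gene was called, and no other call named here changed; the Mecom interval narrowed to -0.71 to 0.36. The difference between Prdm16 and Mecom was -1.76 on log2(CPM + 1) (exact permutation p = 0.1), -2.21 to -0.90 when 1 library was left out, and had an exact sign-flip p of 0.25 over the 3 pairs, the smallest possible. Per kilobase of the longest transcript, Prdm4, Prdm10, Prdm15 and Mecom in Control were at 7.93, 2.60, 1.39 and 0.918 CPM. Low read counts limit Prdm1 and Mecom. The edgeR and DESeq2 alternatives were not run, because the deposited values are log2 CPM; limma voom on the recovered reads was run instead and called 1052 genes.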
